A study of Rattus norvegicus with 6 samples.

Results

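NRF2 (encoded by Nfe2l2), its partners KEAP1 and BACH1, and their direct antioxidant targets were examined in rat brain microvascular endothelial cells (rBMECs) given homocysteine (Hcy) or vehicle. The members were the rows of the deposited gene count table named Nfe2l2, Keap1, Bach1, Hmox1, Nqo1, Gclc, Gclm, Txnrd1, Srxn1 or Osgin1. Of these 10 names, 9 were found among the 33566 genes of the table, and Srxn1 had no row under that name. All 9 passed the minimum of 10 counts summed over the libraries that was set for testing.

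rBMECs are primary cells that line brain capillaries, here isolated from brains of 18 to 22 day old SD rats and used after 1 passage. One group received Hcy (labelled 100 μM, 24 h) and the other sterile water as vehicle (Veh), with 3 libraries each. The treatment notes of the same libraries also name a 50 μmol/L Hcy solution, so the dose that reached the cells rests on the label. The series describes the libraries as biological replicates and does not say which of them share an isolation, so p-values measure the spread between these libraries.

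NRF2 is a transcription factor that KEAP1, the adaptor of a ubiquitin ligase, holds in the cytoplasm and marks for degradation. Oxidants and electrophiles modify KEAP1, and NRF2 then accumulates, pairs with small MAF proteins in the nucleus and binds antioxidant response elements. BACH1 binds the same elements as a repressor and is released by heme. Because NRF2 is controlled mainly as a protein, its transcript level is not a measure of its activity, and the transcripts of its targets are the usual readout.

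The libraries held 14024997 to 16764584 counts, and 3 counts corresponded to 0.178 to 0.215 CPM (counts relative to the library total, scaled with edgeR's TMM factors). That floor covers counting error only. Endothelial markers were abundant, with Cdh5 at 1535 to 2039 CPM and Vwf at 1976 to 3003 CPM. Among brain endothelial transporter genes, Slc2a1 was at 470 to 637 CPM, while Slco1c1 and Mfsd2a did not exceed 4.57 CPM. The tight junction gene Cldn5 is listed at 0 counts in every library, as is Fth1, a ferritin gene that nearly all cells use, so these values of 0 were not read as absence of the transcript. Of 10 pericyte and smooth muscle markers, 8 did not exceed 3.63 CPM in any library, among them Pdgfrb, Rgs5 and Cspg4. The other two, the contractile genes Tagln and Acta2, fell with Hcy, at log2 fold changes of -0.88 and -0.64 (edgeR, Benjamini-Hochberg adjusted p = 0.000801 and 0.0248). The 8 low markers did not pass, and 6 of them had positive log2 fold changes, among them Cspg4 (1.66), Rgs5 (1.26) and Pdgfrb (0.73), with every Hcy library above every Veh library for Cspg4 and Rgs5. Tagln and Acta2 carried most of the summed level of that list, which was 1104 to 1330 CPM in Veh and 674 to 700 CPM in Hcy, and the part of this shift in the results given here was not tested. The fibroblast marker Col1a1 was at 34.2 to 82.0 CPM, with a log2 fold change of -0.52 that did not pass (edgeR adjusted p = 0.264). The fibroblast markers Lum and Pdgfra did not exceed 1.97 CPM and had positive log2 fold changes. Markers of astrocytes, microglia, neurons and epithelium did not exceed 2.63 CPM. The first principal component, with 30.5% of the variance, separated the groups. The second, with 26.2%, set Veh replicate 3 apart at 30.4, against -15.9 and -19 for Veh replicates 1 and 2, so results are given without that library where it mattered.

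Of the 6 measured NRF2 targets, 4 fell with Hcy, of which Hmox1 and Nqo1 also passed the adjusted p whichever library was left out. The transcripts of the 3 regulators did not pass the test, with Nfe2l2 and Keap1 near their Veh level and Bach1 measured with a wide interval. Hmox1 and Nqo1 fell to 44.3% and 49.6% of their Veh level, Osgin1 and Txnrd1 to 72.1% and 78.3%, and Gclc and Gclm lay at 86.4% and 86.0% without passing the test. Nfe2l2, Keap1 and Bach1 stood at 101%, 101% and 105% of Veh. Changes were tested over all 14603 genes with edgeR's quasi-likelihood test, and a call required a Benjamini-Hochberg adjusted p at or below 0.05 and a log2 fold change at or beyond 1 in either direction. By this rule 2 of the 9 members were called, both lower, where 0.233% of all genes tested were called lower and 0.486% in either direction. By the adjusted p alone 4 of the 9 passed, all lower, against 1.01% of genes that passed as lower and 2.34% in either direction. This count was 2 when any library other than Veh replicate 3 was left out, since Txnrd1 and Osgin1 no longer passed, and 5 without Veh replicate 3. The groups did not overlap for 5 of the 9, all lower in Hcy, against 9.27% of genes. The median log2 fold change was -0.22 over the 9 members and -0.02 over all genes tested. In these bulk libraries, fewer cells with a transcript and less transcript per cell cannot be told apart.

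**Figure D1:**
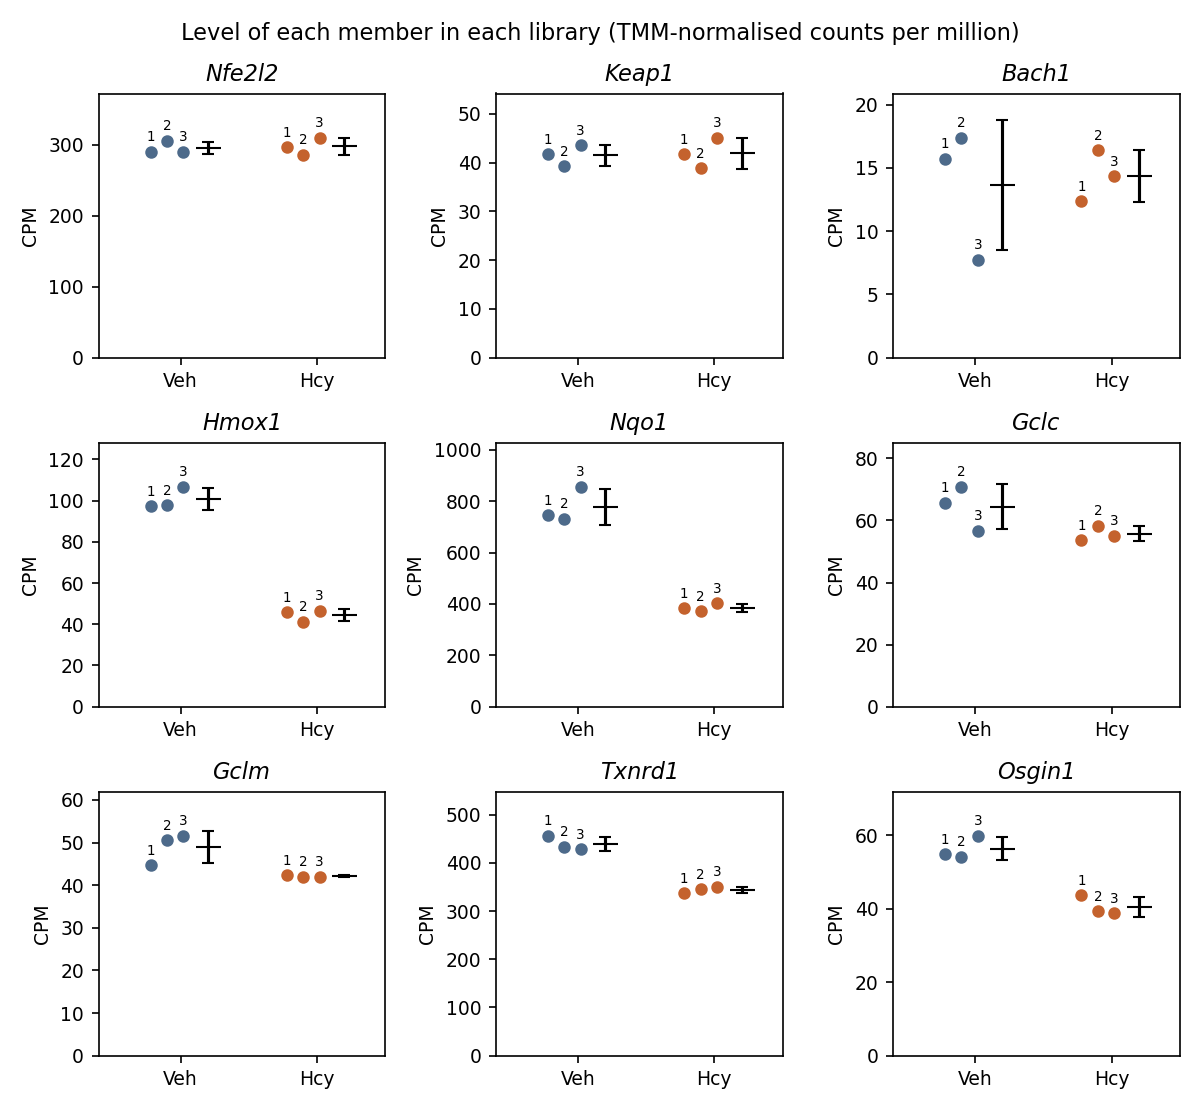
CPM of the 9 members in each library (points, numbered by replicate; blue Veh, orange Hcy), with the group mean and SD (n = 3) beside them and each axis starting at 0. Every Hcy library lies below every Veh library for Hmox1, Nqo1, Gclm, Txnrd1 and Osgin1, whereas the groups overlap for Nfe2l2, Keap1, Bach1 and Gclc.

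Nfe2l2 was read at 290, 306 and 290 CPM in Veh replicates 1 to 3 and at 297, 286 and 310 CPM in Hcy replicates 1 to 3. The groups overlapped throughout, and both had a narrow spread (295 ± 8.93 and 298 ± 12.2 CPM, SD, n = 3). In edgeR the log2 fold change was 0.01 (standard error 0.07, edgeR adjusted p = 0.966), with a 95% interval from -0.14 to 0.16. In linear terms the interval ran from 0.909-fold to 1.12-fold. In the deposited positions, for which the table names no build and which run past the end of chromosome 1 in mRatBN7.2, Nfe2l2 (ENSRNOG00000001548) spans 62497571 to 62524996 of chromosome 3, on the minus strand.

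Keap1 (ENSRNOG00000020878), on chromosome 8 from 22250518 to 22259779, was at 41.7, 39.2 and 43.5 CPM in Veh and at 41.7, 38.8 and 45.1 CPM in Hcy. Its 2 groups covered nearly the same range. edgeR gave a log2 fold change of 0.01 (95% interval -0.18 to 0.21, edgeR adjusted p = 0.968). The ratio of Nfe2l2 to Keap1 counts, which does not depend on how libraries are scaled, was 6.97, 7.79 and 6.67 in Veh and 7.13, 7.37 and 6.88 in Hcy. The mean log2 ratio differed by -0.00066 between the groups (two-sided exact permutation test, p = 1), less than the spread between libraries of one group, and its sign turned when Hcy replicate 3 or Veh replicate 2 was left out.

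Bach1 (ENSRNOG00000001582), on chromosome 11 from 27364916 to 27398842, was the least abundant and the most variable member. It was at 15.7, 17.4 and 7.75 CPM in Veh and at 12.4, 16.4 and 14.3 CPM in Hcy. Veh replicate 3 held 112 Bach1 counts, with a 95% Poisson interval of 92.2 to 135, and Veh replicates 1 and 2 held 265 and 273, with intervals that did not reach it. The SD was thus 37.8% of the mean in Veh and 14.1% in Hcy. The log2 fold change of 0.07 had the widest interval of the members, from -0.52 to 0.67 (edgeR adjusted p = 0.948), and it became -0.20 without Veh replicate 3 (adjusted p = 0.452) and -0.03 without Hcy replicate 2 (adjusted p = 0.986). The sign for Bach1 thus rested on which library was left out. The ratio of Bach1 to Nfe2l2 counts had a mean log2 difference of 0.14 (two-sided exact permutation test, p = 0.8). It became -0.21 without Veh replicate 3 but stayed positive, at 0.01, without Hcy replicate 2.

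Hmox1 encodes heme oxygenase 1, which opens heme to biliverdin, iron and carbon monoxide, and is a target of both NRF2 and BACH1. Hmox1 (ENSRNOG00000014117) lies on chromosome 19 from 14508616 to 14515456. It was at 97.4, 97.7 and 107 CPM in Veh and at 45.9, 41.2 and 46.6 CPM in Hcy. All Hcy libraries lay far below all Veh libraries, and both groups were tight. The log2 fold change was -1.17 (standard error 0.08, edgeR adjusted p = 0.000355), with a 95% interval from -1.36 to -0.99. Hmox1 ranked 7 by p among all genes tested. Fits without 1 library gave log2 fold changes between -1.21 and -1.12, and it was called in all 13 alternative fits.

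Nqo1 encodes NAD(P)H quinone dehydrogenase 1, which reduces quinones by 2 electrons and so keeps them from redox cycling. Nqo1 (ENSRNOG00000012772) is listed on chromosome 19 from 38422164 to 38437180. Its level was 745, 732 and 857 CPM in Veh and 383, 372 and 403 CPM in Hcy. Veh replicate 3 was the highest of all 6, and the Hcy libraries lay close together. The log2 fold change was -1.01 (standard error 0.08, 95% interval -1.19 to -0.83, edgeR adjusted p = 0.00047), which only just met the fold-change threshold. It was -0.94 without Veh replicate 3 and -0.99 without Hcy replicate 2, so Nqo1 was called in 11 of 13 alternative fits while its adjusted p stayed at or below 0.00925 in all 13.

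Within each library the ratio of Hmox1 to Nqo1 counts was 0.131, 0.1335 and 0.1247 in Veh and 0.12, 0.111 and 0.116 in Hcy. The Hcy libraries were all lower, by -0.17 on the log2 scale (two-sided exact permutation test, p = 0.1, the smallest that 3 against 3 libraries allow, and 0.25 after Benjamini-Hochberg adjustment over 5 pairs). The ratio of Hmox1 to Bach1 counts was 6.19, 5.62 and 13.8 in Veh and 3.72, 2.52 and 3.25 in Hcy. Its groups did not overlap, with a mean log2 difference of -1.33 (exact permutation p = 0.1, adjusted 0.25), or -0.92 without Veh replicate 3.

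Gclc and Gclm encode the catalytic and the modifier subunit of glutamate-cysteine ligase, which makes the first and rate-limiting step of glutathione synthesis. Gclc (ENSRNOG00000006302), on chromosome 8 from 85059051 to 85097468, was at 65.7, 70.9 and 56.7 CPM in Veh and at 53.6, 58.3 and 55.1 CPM in Hcy. Veh replicate 3 fell inside the Hcy range, so the groups overlapped. The log2 fold change was -0.21 (95% interval -0.42 to 0.00, edgeR adjusted p = 0.378). Without Veh replicate 3 it was -0.29 and passed (edgeR adjusted p = 0.0332), the only one of 13 alternative fits in which Gclc did. Without Veh replicate 2 it was -0.14 (edgeR adjusted p = 0.649).

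Gclm (ENSRNOG00000013409), on chromosome 2 from 225827504 to 225847874, was at 44.7, 50.5 and 51.6 CPM in Veh and at 42.4, 42.0 and 42.0 CPM in Hcy. Its Hcy libraries were the tightest of any member, with an SD of 0.551% of the mean, and all lay below the lowest Veh library. At 590, 625 and 703 counts, this SD is smaller than counting error alone would give, so it is not read as a trait of the gene. The log2 fold change was -0.22 (95% interval -0.40 to -0.03), with an unadjusted p of 0.0248 and an edgeR adjusted p of 0.264 over all genes tested, so it did not pass. The ratio of Gclm to Gclc counts had a mean log2 value of -0.39 ± 0.23 in Veh and -0.40 ± 0.07 in Hcy (SD, n = 3). That difference was not separable from the spread (two-sided exact permutation test, p = 1) and changed sign without Veh replicate 3 or Hcy replicate 2.

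Txnrd1 encodes cytosolic thioredoxin reductase 1, a selenoprotein that returns oxidised thioredoxin to its reduced form with NADPH. Txnrd1 (ENSRNOG00000009088), on chromosome 7 from 26946125 to 26984400, was at 457, 434 and 428 CPM in Veh and at 337, 345 and 350 CPM in Hcy. Both groups were tight and did not overlap. Txnrd1 changed by -0.35 on the log2 scale (standard error 0.06, 95% interval -0.50 to -0.21, edgeR adjusted p = 0.0232). With 1 library fewer the size held between -0.37 and -0.32, but the edgeR adjusted p rose to between 0.0781 and 0.137 when any library other than Veh replicate 3 was left out, and was 0.00244 without Veh replicate 3.

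Sulfiredoxin 1, which repairs over-oxidised peroxiredoxins, had no row named Srxn1. The row named AABR07054319.1 (ENSRNOG00000031167), on chromosome 3 from 147609095 to 147632801, carries mouse sulfiredoxin 1 as its Swiss-Prot match and was looked at after the name was found missing. It was at 23.9, 26.3 and 20.9 CPM in Veh and at 14.1, 16.9 and 18.6 CPM in Hcy, again without overlap. Its log2 fold change was -0.52 (95% interval -0.83 to -0.21) and did not pass (edgeR adjusted p = 0.104), whereas it passed with DESeq2 (adjusted p = 0.0301) and without Veh replicate 3 (edgeR adjusted p = 0.0228).

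Osgin1 encodes oxidative stress induced growth inhibitor 1, a flavin-binding protein whose gene NRF2 activates. Osgin1 (ENSRNOG00000014948), on chromosome 19 from 52077109 to 52085496, was at 54.8, 54.2 and 59.9 CPM in Veh and at 43.7, 39.3 and 38.7 CPM in Hcy. All Hcy libraries lay below all Veh libraries. Osgin1 changed by -0.47 on the log2 scale (standard error 0.08, 95% interval -0.66 to -0.29, edgeR adjusted p = 0.0215). As for Txnrd1, the edgeR adjusted p rose to between 0.0606 and 0.137 when any library other than Veh replicate 3 was left out, and was 0.00843 without Veh replicate 3.

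**Figure D2:**
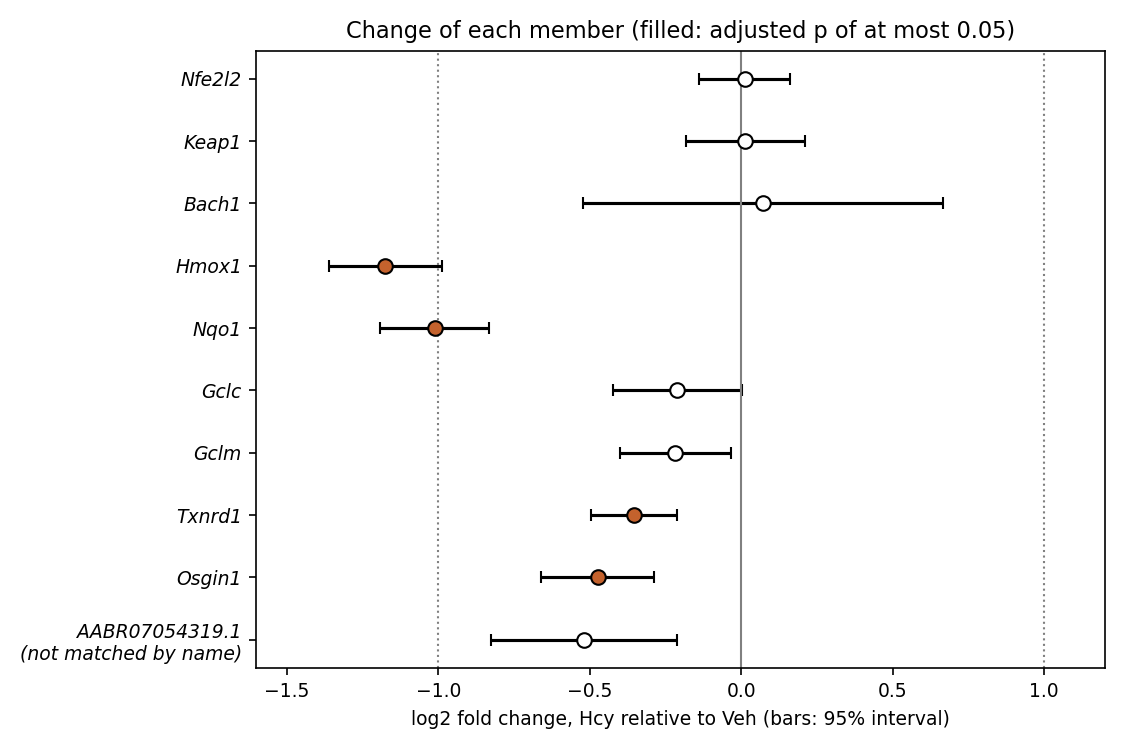
Log2 fold change of each member and of the sulfiredoxin 1 row AABR07054319.1, Hcy relative to Veh, with its 95% interval from the edgeR fit; filled points have an adjusted p of at most 0.05 and dotted lines mark a log2 fold change of 1 in either direction. Hmox1 (-1.17) and Nqo1 (-1.01) lie at the threshold line, the other target members between -0.47 and -0.21, and the 3 regulators around 0.

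**Figure D3:**
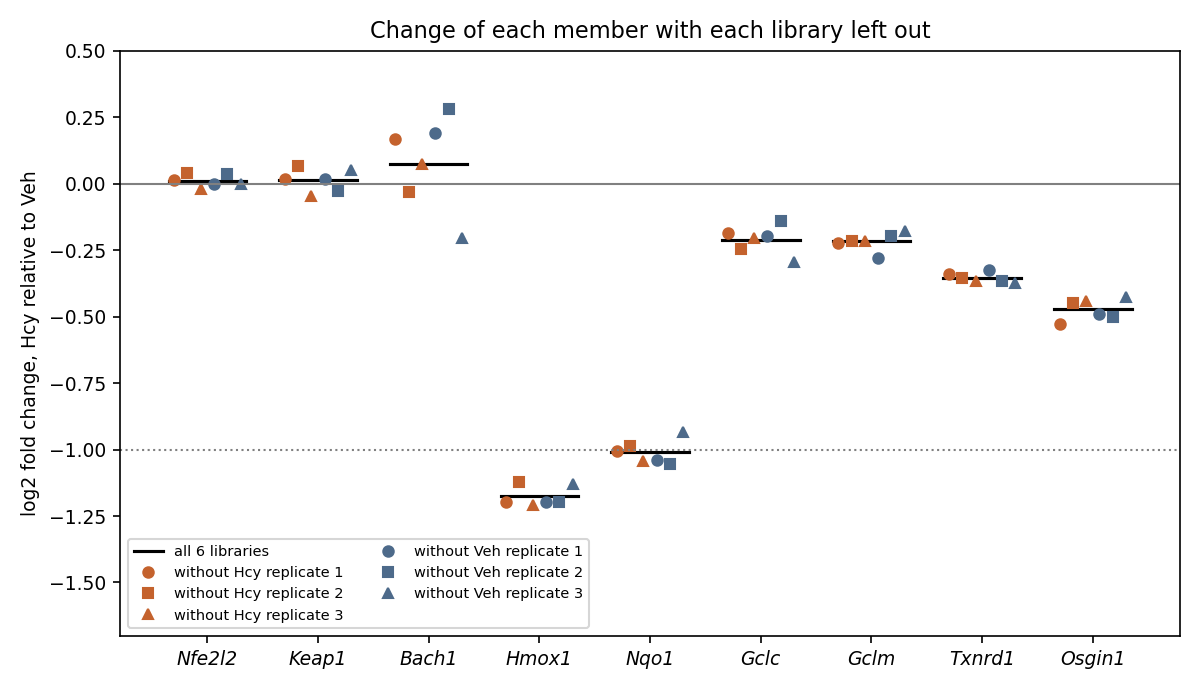
Log2 fold change of each member, Hcy relative to Veh, with all 6 libraries (black line) and with each library left out (points, orange for Hcy and blue for Veh libraries left out). The 6 targets keep their sign in every fit, Nqo1 crosses the dotted line at -1 in 2 fits, and Bach1 moves from -0.20 to 0.28 depending on the library left out.

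Levels between genes were compared per length, as RPKM (TMM-scaled CPM per kilobase of the deposited gene length). Nqo1 was the most abundant member, at 493 ± 43.7 RPKM in Veh and 244 ± 9.81 RPKM in Hcy (SD, n = 3). Nfe2l2 and Txnrd1 followed, at 128 ± 3.87 and 128 ± 4.41 RPKM in Veh, where their libraries overlapped. In Hcy they parted, at 129 ± 5.30 RPKM for Nfe2l2 and 100 ± 1.99 RPKM for Txnrd1. Hmox1 came next in Veh at 64.3 ± 3.44 RPKM, clear of Gclm at 32.9 ± 2.51 RPKM, and overlapped Gclm in Hcy, at 28.5 ± 1.86 against 28.3 ± 0.156 RPKM. Osgin1 (25.5 RPKM in Veh) and Gclc (21.2 RPKM in Veh) were close, and their libraries overlapped in Hcy alone. Keap1 at 13.1 RPKM and Bach1 at 3.78 RPKM in Veh were the lowest and overlapped no neighbour in either group. The most abundant member exceeded the least abundant 95-fold over all libraries.

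NRF2 and BACH1 bind a core written TGACNNNGC, and this was searched on both strands in RefSeq promoter windows of GRCr8, from 250 bases before to 50 bases after each start. Of the 10 members listed, 9 had a window (Hmox1 had none in the table), and Txnrd1 had a pair of them. The core occurred in windows of 3 members, Gclm, Txnrd1 and Nfe2l2, and in 12.1% of all 33469 windows of the same length. In Gclm it lay at -172 to -164 from the start and read TGACTAAGC on the opposite strand. In the second Txnrd1 window it lay at -78 to -70 and read TGACAAAGC, also on the opposite strand, and in Nfe2l2 it lay past the start at 39 to 47 and read TGACGCCGC. None of the 3 overlapped a match to TGANTCA, the AP-1 site, which was in 7.33% of windows. A match describes letters and not binding, and a window without one says nothing of elements farther away. The 250 bases before the start are shown for the 2 targets whose window held the core, at chr2:213031885-213032134 (plus strand) for Gclm and chr7:22755905-22756154 (minus strand) for Txnrd1, and for Nqo1, the most abundant member, at chr19:52220268-52220517 (minus strand), where the letters did not occur. Capitals mark the core, which both times reads in reverse complement on the strand of the gene.

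Gclm: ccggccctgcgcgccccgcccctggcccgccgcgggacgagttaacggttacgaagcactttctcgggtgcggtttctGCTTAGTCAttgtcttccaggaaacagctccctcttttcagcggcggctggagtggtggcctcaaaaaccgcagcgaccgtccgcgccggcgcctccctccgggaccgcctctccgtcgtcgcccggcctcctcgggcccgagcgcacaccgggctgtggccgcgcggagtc

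Txnrd1: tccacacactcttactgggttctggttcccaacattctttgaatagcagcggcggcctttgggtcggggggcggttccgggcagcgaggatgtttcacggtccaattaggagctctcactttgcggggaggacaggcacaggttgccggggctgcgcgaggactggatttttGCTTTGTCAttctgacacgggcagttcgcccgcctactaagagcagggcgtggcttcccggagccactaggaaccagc

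Nqo1: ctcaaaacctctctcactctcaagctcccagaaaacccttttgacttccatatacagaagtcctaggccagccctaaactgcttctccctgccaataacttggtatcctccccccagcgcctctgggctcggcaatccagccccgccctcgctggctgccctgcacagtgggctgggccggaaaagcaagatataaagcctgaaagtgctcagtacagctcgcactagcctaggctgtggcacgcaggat

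Beyond the members, the partners and regulators of NRF2 were listed under 25 names (small MAF proteins, CNC factors, the CUL3 ligase, p62 and others). The names include Brg1, an alias of Smarca4, and 23 genes were tested. Of these, 0 were called (0 also at an unadjusted edgeR p of 0.05 with the same fold-change threshold, and 0 by DESeq2), where 0.486% of all genes were. At the unadjusted edgeR p alone there were 4 of 23, against 13.4% of all genes. DESeq2 passed 4 of 23 by its adjusted p, against 4.14% of the 14603 genes tested in edgeR (13156 had a DESeq2 value). By edgeR 2 passed the adjusted p as lower and 1 as higher (1.01% and 1.32% over all genes), and the median log2 fold change was -0.04 (-0.02 over all genes). The 2 lower ones were the small MAF genes Maff and Mafk, whose products pair with both NRF2 and BACH1. Maff was at 620, 619 and 642.5 CPM in Veh and at 496, 489 and 498 CPM in Hcy (log2 fold change -0.34, standard error 0.06, edgeR adjusted p = 0.0209). Mafk was at 216, 204 and 198 CPM in Veh and at 156.5, 160 and 165 CPM in Hcy, a log2 fold change of -0.36 (edgeR adjusted p = 0.0303). The third small MAF gene, Mafg, was at 19.0 ± 3.70 CPM in Veh and 18.4 ± 2.34 CPM in Hcy (SD, n = 3; edgeR adjusted p = 0.948). Brca1, a DNA repair gene whose product also binds NRF2, was higher, at 8.44 ± 0.669 CPM in Hcy against 4.54 ± 0.944 CPM in Veh (SD, n = 3; log2 fold change 0.89, edgeR adjusted p = 0.0486). Each of these 3 genes passed in 1 of the 6 edgeR fits that left out a library, the one without Veh replicate 3, and their adjusted p reached 0.137, 0.163 and 0.175 in the others. Cul3 was at 158 ± 5.00 CPM in Veh and 158 ± 3.05 CPM in Hcy.

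Other NRF2 targets were listed under 61 names, with Hrg1 as an alias of Slc48a1, and 52 genes were tested. Among the 52, 36 genes, or 69.2%, were lower in Hcy by sign, where 53.1% of all genes tested were. By the full rule 2 were called, both lower, which is 3.85% of those tested, against 0.233% of all genes. By the adjusted p alone 4 passed as lower, or 7.69%, and 2 as higher, against 1.01% and 1.32% of all genes. The groups did not overlap for 17 as lower, or 32.7% of those tested, and for 3 as higher, where 9.27% and 10.8% of all genes did so. The median log2 fold change was -0.10, against -0.02 over all genes. Leaving out 1 library moved the number past the adjusted p from 6 to between 2 and 9, and the number called from 2 to between 0 (without Hcy replicate 1 or Hcy replicate 2) and 3 (without Veh replicate 1). These calls were not all lower. The single call without Hcy replicate 3 was Chac1, as higher (log2 fold change 1.02, edgeR adjusted p = 0.0233), and Chac1 was also called without Veh replicate 1 and without Veh replicate 3, so that 0 were called as lower without any 1 of the Hcy libraries.

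In the glutathione and thioredoxin group, 17 genes were tested, with 1 lower and 1 higher by the adjusted p (1.01% and 1.32% over all genes). Gsta1, a glutathione transferase, was at 2.55, 4.78 and 5.12 CPM in Veh and at 1.15, 1.48 and 1.19 CPM in Hcy (log2 fold change -1.695, edgeR adjusted p = 0.0272), and was called. It passed in 2 of the 6 fits without a library (without Veh replicate 1 or Veh replicate 3), with an edgeR adjusted p of up to 0.14 in the others. Chac1, which breaks glutathione down and is better known as a target of ATF4, was higher, at 42.4, 41.6 and 39.6 CPM in Hcy against 22.8, 17.5 and 21.8 CPM in Veh (log2 fold change 0.99, edgeR adjusted p = 0.00353), and it passed in all 13 alternative fits. Gstp1, at 1230 ± 216 CPM in Veh and 882 ± 43.3 CPM in Hcy, had a log2 fold change of -0.48 and did not pass (edgeR adjusted p = 0.0743). Without Veh replicate 3 it was at -0.33 and passed (edgeR adjusted p = 0.00571), and 1 other row shares its Swiss-Prot match. In the group for NADPH supply, 1 of 6 genes passed edgeR's adjusted p, as higher (1.32% over all genes). The one that rose was Mthfd2, a mitochondrial folate enzyme also driven by ATF4, with a log2 fold change of 0.55 (edgeR adjusted p = 0.0119), and 1 further row shares its Swiss-Prot match. It passed in 2 of the 6 fits without a library (without Hcy replicate 2 or Veh replicate 3), with an edgeR adjusted p of up to 0.0683 in the others. Taldo1 and Me1 had log2 fold changes of -0.31 and -0.28 and did not pass (edgeR adjusted p = 0.232 and 0.271), and Taldo1 was at -0.19 without Veh replicate 3 (edgeR adjusted p = 0.165).

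In the detoxication and transport group, 3 of 23 genes passed the adjusted p, all lower, against 1.01% of all genes. The groups did not overlap for 8 as lower and 1 as higher, against 9.27% and 10.8% of all genes. Akr1b8, an aldo-keto reductase, was at 1267, 1268 and 1514 CPM in Veh and at 720, 652 and 703 CPM in Hcy. It changed by -0.96 on the log2 scale (standard error 0.09, edgeR adjusted p = 0.000965), it passed in all 13 alternative fits, and 2 other rows share its Swiss-Prot match, so reads can have been split. Ptgr1, prostaglandin reductase 1, was called at a log2 fold change of -1.08 (edgeR adjusted p = 0.0443), and Tsku, a secreted leucine-rich protein, passed at -0.80 (edgeR adjusted p = 0.0229). Ptgr1 and Tsku each passed in 1 of the 6 edgeR fits without a library, the one without Veh replicate 3 (where Ptgr1 was at -0.95 and not called), with an adjusted p of up to 0.171 and 0.113 in the others.

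Hmox1 works within heme and iron handling, and 0 of the 6 genes tested in that target group passed edgeR's adjusted p. The genes Slc48a1, Blvrb and Fech had all Hcy libraries below all Veh libraries without passing (log2 fold changes -0.27, -0.45 and -0.25, edgeR adjusted p = 0.114, 0.133 and 0.293). These encode a lysosomal heme transporter, biliverdin reductase B and ferrochelatase. Such a gap below Veh was present in 9.27% of all genes. At an unadjusted p of 0.05 or less there were 3 of the 6 in edgeR, against 13.4% of all genes tested. DESeq2 gave 1 of the 6 past its adjusted p, against 4.14% of the genes tested in edgeR. The ferritin gene Fth1 had 0 counts in all 6 libraries and was not tested. In a wider list of 16 genes for heme synthesis and handling, 14 were lower by sign, where 53.1% of all genes were, and the median log2 fold change was -0.13 against -0.02. In that list 1 gene passed the adjusted p as lower, where 1.01% of all genes did. That gene was Flvcr2, a membrane transporter long listed with heme handling, at 20.1, 19.6 and 19.3 CPM in Veh and at 9.12, 10.6 and 11.2 CPM in Hcy (log2 fold change -0.93, standard error 0.12, edgeR adjusted p = 0.00613), and it passed in all 13 alternative fits. Hmox2, the constitutive heme oxygenase, was at 53.0 ± 3.58 CPM in Veh and 51.4 ± 1.74 CPM in Hcy (SD, n = 3; edgeR adjusted p = 0.879).

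**Figure D4:**
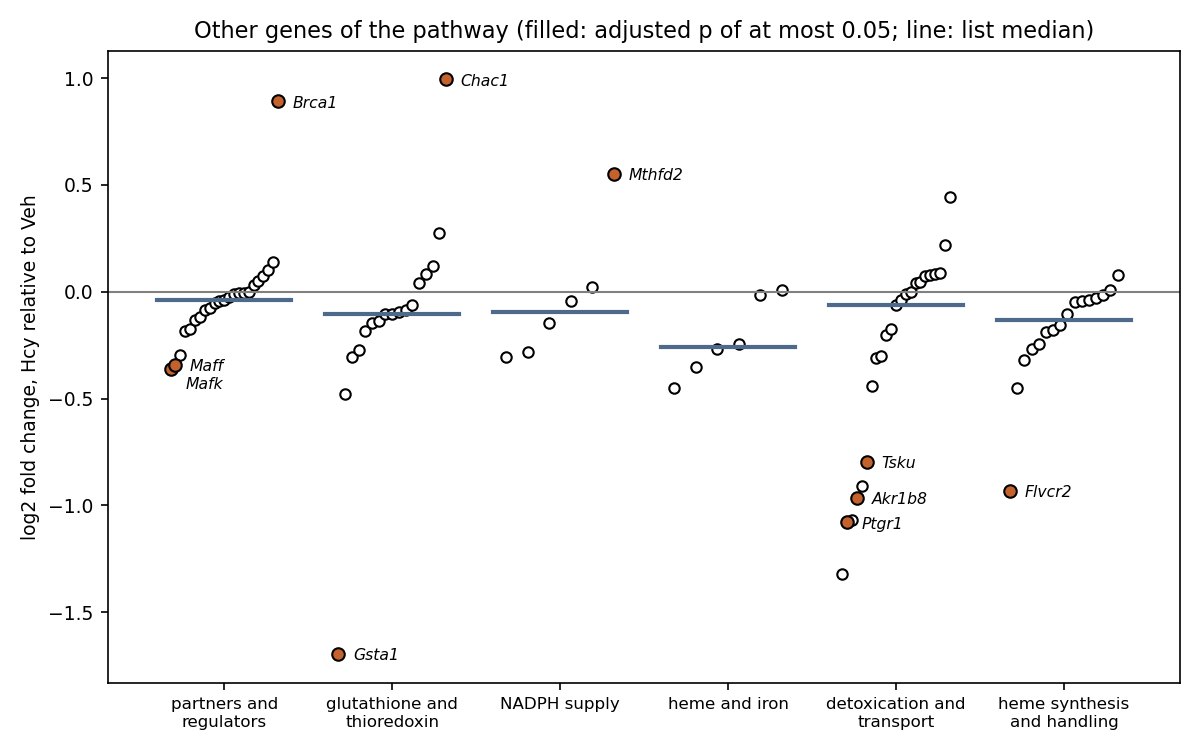
Log2 fold change, Hcy relative to Veh, of every tested gene of the 6 lists of partners, other targets and heme genes, sorted within each list; filled and named points have an adjusted p of at most 0.05 and blue lines are list medians. Most points lie between -0.5 and 0.2, with list medians from -0.26 for heme and iron to -0.04 for partners and regulators.

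The genes most like Hmox1 and Nqo1 across the 6 libraries were taken by Pearson's r of log2 CPM among 8249 genes with a mean of at least 10 CPM. For Nqo1 they were Maff, Tnfrsf1b, Akr1b8, Hmox1 and Tagln, with r from 0.995 to 0.999. For Hmox1 they were Tnfrsf1b, Maff, Slc1a1, Bcl2l1 and Nqo1, with r from 0.996 to 0.999. With 3 libraries on each side, these values mostly describe the gap between the groups, and 274 genes had an r over 0.9 with Nqo1 and 281 with Hmox1.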

How the data were processed

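RNA from 3 Hcy and 3 Veh cultures of rBMECs was sequenced from poly(A) libraries. Per the labels and the submitters' processing notes, reads were trimmed with fastp, aligned with HISAT2 (2.2.1) and counted per gene with featureCounts (2.0.6), and the notes name mRatBN7.2. The deposited values used are whole-number read counts per gene without normalization, with the gene length, positions and annotation that the authors set beside them (other columns). The deposited table names no build. Its positions on chromosome 1 reach 282724300, beyond the end of that chromosome in mRatBN7.2, so the positions printed are as deposited and are not taken to be on that build. Whether counting used strand is not given in the sources used here. A second deposited table holds the authors' normalized counts, fold changes and p-values and was not used. Of the rows in the count table, 683 have no gene name.

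Genes with at least 10 counts over the 6 libraries (14603 of 33566) were tested in edgeR 4.0.16 (R 4.3.3) with TMM scaling and the quasi-likelihood test, with Benjamini-Hochberg adjustment over all of them. Calls needed an adjusted p at or below 0.05 and a log2 fold change at or beyond 1 in either direction. Library totals of 14024997 to 16764584 make 3 counts, taken as the floor, 0.178 to 0.215 CPM. Count intervals are exact Poisson intervals at 95% and cover counting error only. Ratios of 2 members within a library were compared by two-sided exact permutation tests over libraries. The ratio of Txnrd1 to Srxn1 was not computed, since Srxn1 had no row. Named were all members, from each list of further pathway genes all called genes and, where fewer than 3 were called, those with the smallest p up to 3, and the 5 genes most correlated with Hmox1 and with Nqo1. Mafg, Cul3, Hmox2 and Fth1, outside this rule, were chosen after their values were seen. Alternatives were DESeq2 1.42.0, its size factors in edgeR, library totals alone, filterByExpr, no count filter, a prior count of 2, a replicate block and leaving out each library, and for ratios 1 added count. The procedure was tested on simulated data with 200 changed genes. By the adjusted p, edgeR recovered 194 of 200 at a planted log2 fold change of 1 and 77 of 200 at 0.5. A gene that did not pass is thus not shown to be unchanged at the smaller size. The members and gene lists were chosen with earlier results of these data known.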

Additional observations from a re-analysis of the deposited data

How the results depend on the processing

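Over 13 alternative fits the 6 measured targets kept their negative sign, and Hmox1 was called in all 13. The number of members called was 2 in all of them except without Hcy replicate 2 and without Veh replicate 3, where Nqo1 fell below the fold-change threshold, so that leaving out a library gave 1 to 2. The number of members past the adjusted p was 4 and ranged from 2 to 5 with a library left out, being 5 without Veh replicate 3 and 2 without any other. For the other NRF2 targets it was 6, with a range of 2 to 9, and 9 by DESeq2 (1.5 times), and the number called was 2, with a range of 0 to 3. Leaving out a library gave log2 fold changes from -0.20 (without Veh replicate 3) to 0.28 for Bach1, also negative without Hcy replicate 2 (-0.03), from -0.020 (without Hcy replicate 3) to 0.040 for Nfe2l2, also negative without Veh replicate 3 (-0.0012), and from -0.045 (without Hcy replicate 3) to 0.065 for Keap1, also negative without Veh replicate 2 (-0.03). None of these passed the test. The log2 ratio difference ranged from -0.090 to 0.12 for Gclm to Gclc (positive without Hcy replicate 2, at 0.03, and Veh replicate 3), from -0.049 to 0.064 for Nfe2l2 to Keap1 (positive without Hcy replicate 3, at 0.02, and Veh replicate 2) and from -0.21 (without Veh replicate 3) to 0.33 for Bach1 to Nfe2l2. Over all genes, 71 were called and 341 passed the adjusted p, against 39 to 112 and 80 to 957 with a library left out (957 without Veh replicate 3), 604 past the adjusted p by DESeq2 and 109 called without the count filter. The cause of these shifts was not tested.

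Libraries with the same replicate number correlated at 0.024, 0.167 and 0.058 in their deviations from the group means. Hcy replicates 2 and 3 correlated best with the Veh library of their own number, but Hcy replicate 1 correlated best with Veh replicate 3 (0.129). The numbers are thus not shown to pair the libraries. With the replicate number as a block, 2 members were called and 3 passed the adjusted p (Txnrd1 at 0.0558 in edgeR), with 82 genes called and 298 past the adjusted p overall. Blocked sign-flip tests of the ratios could not go below 0.25. With 3 libraries a group, exact tests could not go below 0.1.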
